A study of Homo sapiens with 8 samples.

Results

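CD79A, CD79B, VPREB1, VPREB3, BLNK, PAX5, SYK and BTK are described here in HEL cells treated with a JAK2 inhibitor, a telomerase inhibitor or both. CD79A and CD79B are the signalling chains of the pre-B cell receptor, VPREB1 is a part of its surrogate light chain and VPREB3 a related protein. BLNK is an adaptor and SYK and BTK are kinases of its signalling, and PAX5 is a transcription factor of the B lineage. These genes were taken as a list by name. The listed genes are 8 of the 17958 genes that the array names by a probe set of their own. Where several probe sets are annotated to a gene alone, the brightest on average is taken. Each of the 8 genes had exactly 1, so that step excluded none. The list was chosen by name around CD79A and CD79B, whose lower log2 signals with LY2784544 and with the combination were known from earlier results of these data. Their differences from control are therefore a description and no independent evidence of a fall.

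HEL is a human erythroleukaemia line that depends on an activated JAK2 kinase. Cells were exposed for 48 h to 0.5 µM LY2784544, a JAK2 inhibitor, to 20 µM GRN163L, an oligonucleotide inhibitor of telomerase, to the combination of both, or to DMSO alone as the control, and total RNA was put on Affymetrix arrays. There were 2 arrays in a group, 1 from a first and 1 from a second experiment, and the labels do not restate the doses used in the combination. All groups are cultures of 1 cell line, so a p-value measures only the spread between these cultures and arrays. Values are log2 signals made by RMA (robust multi-array average), given as mean ± SD over the 2 arrays of a group.

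The pre-B cell receptor is an immunoglobulin heavy chain paired with a surrogate light chain, of which VPREB1 is one part. CD79A and CD79B, also called Ig-alpha and Ig-beta, form the dimer that carries this receptor and the mature B cell receptor to the surface and bears their tyrosine signalling motifs. The kinase SYK docks on the phosphorylated motifs and phosphorylates the adaptor BLNK, which brings in the kinase BTK. PAX5 holds B cells to their lineage and activates CD79A. SYK and BTK are used well outside the B lineage, for instance in platelets and mast cells.

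Marker genes of several blood lineages were measured above the filter in HEL cells. In the filter used for testing, a gene was kept where its mean over the 8 arrays reached 4.37, the 30th percentile of all genes. By that rule 12570 of 17958 genes were kept, so the counts of kept markers say little about a lineage. Among the erythroid markers 6 of 8 measured were kept, GATA1 at 10.4 and KLF1 at 9.21 among them. Of the megakaryocyte markers 5 of 6 were kept, with ITGA2B at 11.2 and ITGB3 at 11.8. Of 11 measured B cell markers 6 were kept, with BANK1 at 7.0, CD79A and CD79B among them, while MS4A1 (3.42), CD22 (3.05), EBF1 (3.43) and PAX5 (4.12) were below the filter. Of 10 T cell markers 6 were kept, with CD3D, CD3E and CD3G below the filter. CD2 was at 6.35, while CD5, CD8A, LCK, ZAP70 and CD247 lay at 4.39 to 4.70, little above the filter level. Of 8 monocyte markers 6 were kept, LYZ at 10.5 and CD68 at 9.07 among them, with CD14 below it. All 6 measured mast cell and basophil markers were kept. The mean level of the 11 B cell markers lay at 4.49 to 4.64 with LY2784544, 4.69 to 4.83 with GRN163L, 4.58 to 4.66 with the combination and 4.75 to 4.77 in control. Those means include CD79A and CD79B. Without them the other 9 averaged 4.35 and 4.45 with LY2784544, 4.59 and 4.40 with GRN163L, 4.55 and 4.55 with the combination, and 4.40 and 4.34 in control. The combination arrays lay above the control arrays by little, and MS4A1, CD22, PAX5, EBF1 and FCRLA among the 9 were below the filter. Of those kept, BANK1 averaged 7.47 with the combination and 6.81 in control, but CR2 4.99 and 5.53. The median of 356 olfactory receptor genes was also higher with the combination (3.53 and 3.37) than in control (3.25 and 3.28). Its part in these means was not tested. In a bulk culture, fewer cells that use a gene and less RNA of that gene per cell cannot be told apart.

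CD79A lies at chr19:41877279-41881372 on the plus strand and CD79B at chr17:63928740-63932331 (GRCh38.p14, as are all positions here). The 250 bases before the CD79A start are shown because CD79A moved the most of the 8 genes. They were taken from RefSeq (chr19:41877029-41877278, plus strand), with capitals marking an E-box of the kind that TCF3 and related factors bind.
CD79A: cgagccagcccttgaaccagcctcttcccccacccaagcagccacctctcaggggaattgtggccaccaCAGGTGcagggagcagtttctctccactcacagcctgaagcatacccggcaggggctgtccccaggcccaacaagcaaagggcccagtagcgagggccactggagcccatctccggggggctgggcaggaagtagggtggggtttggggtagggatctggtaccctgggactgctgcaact
The E-box CAGGTG, searched on both strands and chosen after this stretch was read, began at position -181, counted from the start site, and stood in 20.6% of 35116 RefSeq promoter windows of the same length (250 bases before to 50 after the start). Windows were found for 7 of the 8 genes, and none was found for CD79B, which was therefore not searched. CAGGTG also stood in the windows of VPREB1, VPREB3, BLNK and SYK.

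The other letters searched, on both strands, were CCCNNGGG for EBF1, TTCNNNGAA for STAT factors, ATTTGCAT for the octamer of POU factors and AGATAA for GATA factors. They stood in 19.1%, 7.66%, 1.77% and 10.3% of all windows. No match to these 4 lay in the CD79A window, nor in those of BLNK, PAX5 and SYK. The VPREB3 window held an octamer at -47 and a STAT match at -148. The VPREB1 window held an EBF1 match at -29, and the BTK window one at -116 and a GATA match just after the start site. These are matches of letters in 1 window per gene, and no binding was measured.

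CD79A and CD79B were the only members called against control (adjusted p below 0.05) in the limma fit on group means alone. Both were lower on every treated array than on either control array, while SYK was higher on every treated array. The share of all genes whose groups separate in such ways, here and below, was not counted. CD79A, the Ig-alpha chain, had signals of 5.32 and 5.96 with LY2784544, 6.44 and 6.76 with GRN163L, 4.95 and 5.42 with the combination, and 6.97 and 7.08 in control, in experiments 1 and 2. The combination and LY2784544 arrays were lowest and overlapped each other, the GRN163L arrays lay above both, and the control arrays were highest. Its SD over the 8 arrays was larger than that of 99.2% of all genes.

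CD79B, the Ig-beta chain, had signals of 4.92 and 5.04 with LY2784544, 5.32 and 5.26 with GRN163L, 4.51 and 4.84 with the combination, and 5.87 and 6.13 in control. The order of the groups was that of CD79A, and here no group overlapped another. Every CD79B array was above the filter level, the lowest by little. Its SD over the arrays was larger than that of 96.2% of all genes. Across the 8 arrays CD79A and CD79B had a Pearson correlation of 0.924, as a description of points that share treatments and experiments.

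**Figure D1:**
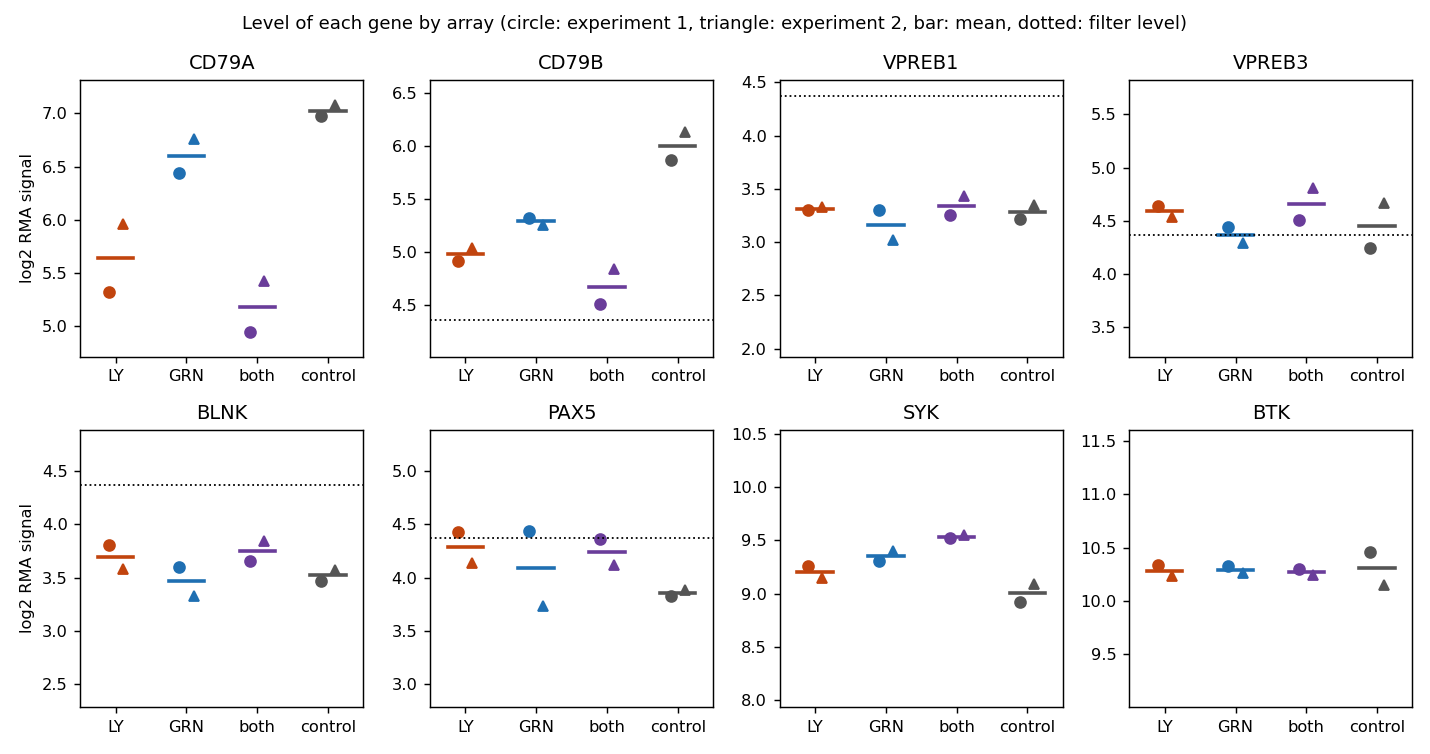
Log2 RMA signal (vertical axis, each panel spanning the same number of units) of the 8 genes on the LY2784544 (LY), GRN163L (GRN), combination (both) and control arrays, with circles for experiment 1, triangles for experiment 2 and bars for group means. CD79A and CD79B are lower on all treated arrays than in control, SYK is higher, BTK lies between 10.15 and 10.46 throughout, and VPREB1 and BLNK stay below the dotted filter level of 4.37.

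LY2784544 against control asked what inhibition of JAK2 did to these genes. CD79A averaged 5.64 ± 0.45 with LY2784544 and 7.03 ± 0.08 in control (n = 2 each), a log2 difference of -1.39 (SE 0.25, 95% interval -1.96 to -0.82, limma adjusted p = 0.0416), or 2.61-fold lower. CD79B averaged 4.98 ± 0.08 with LY2784544 and 6.0 ± 0.18 in control, a difference of -1.02 (SE 0.18, interval -1.42 to -0.62, adjusted p = 0.0334), or 2.03-fold lower. The fall of CD79A was -1.65 in experiment 1 and -1.12 in experiment 2, and that of CD79B -0.95 and -1.09. Of the 12570 genes kept, 66 had a lower difference than CD79A and 181 a lower one than CD79B.

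Of the 5 members kept by the filter (CD79A, CD79B, VPREB3, SYK and BTK), 2 fell and 0 rose with LY2784544, beside 0.883% of all genes that fell and 0.39% that rose. That count includes the genes that put the list together, and nothing is read from it.

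The 2 calls with LY2784544 were narrow. Of the alternatives run, 6 of 15 kept the call of CD79A and 6 of 14 that of CD79B, with adjusted p from 0.00723 to 0.187 and from 0.0138 to 0.16. CD79A was not called without the control array of experiment 1 (-1.44) or 2 (-1.33), the LY2784544 array of experiment 1 (-1.07), or either GRN163L array (-1.39). CD79B was not called without either control array (-1.15 and -0.89), either LY2784544 array (-0.96 and -1.08) or either GRN163L array (-1.02). Blocked by experiment both were called, at limma adjusted p = 0.00723 and 0.0138. Quantile normalization of the tested genes gave -1.29 and -0.96 with neither called.

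GRN163L against control asked the same of the telomerase inhibitor. CD79A averaged 6.60 ± 0.23 with GRN163L and 7.03 ± 0.08 in control (difference -0.43, interval -0.995 to 0.145, limma adjusted p = 0.995). CD79B averaged 5.29 ± 0.04 with GRN163L and 6.0 ± 0.18 in control (-0.71, interval -1.11 to -0.31, adjusted p = 0.713). CD79B was at -0.55 in experiment 1 and -0.87 in experiment 2, and only 97 of 12570 genes had a lower difference. By limma 0 of 5 members were called, beside 0.0% of all genes, and CD79B (unadjusted p = 0.00318) and SYK (0.0457) were the members among 595 genes with an unadjusted p below 0.05. Those 595 genes are a smaller share of the 12570 tested than the 0.05 that chance alone would give on average. The members among them are therefore no evidence of a change with GRN163L. A fit on the control and GRN163L arrays alone called 6 genes, none of them a member.

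For the combination, the question was what LY2784544 and GRN163L did when given at once. CD79A averaged 5.19 ± 0.33 with the combination and 7.03 ± 0.08 in control, a difference of -1.84 (SE 0.25, interval -2.41 to -1.27, limma adjusted p = 0.0102), or 3.58-fold lower. CD79B averaged 4.68 ± 0.23 with the combination and 6.0 ± 0.18 in control, a difference of -1.33 (SE 0.18, interval -1.73 to -0.93, adjusted p = 0.00906), or 2.51-fold lower. Per experiment the falls were -2.02 and -1.66 for CD79A and -1.36 and -1.29 for CD79B. Among all genes 48 had a lower difference than CD79A and 149 a lower one than CD79B.

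With the combination 2 of the 5 members fell and 0 rose, beside 2.71% of all genes that fell and 0.756% that rose. The comparisons with control share the same 2 control arrays, so the falls with each agent and with both are not separate evidence. The CD79A call held in 13 of 15 alternatives and the CD79B call in 13 of 14. CD79A was not called without the control array of experiment 1 (-1.90, adjusted p = 0.0594) or 2 (-1.79, adjusted p = 0.0805), and CD79B not without that of experiment 2 (-1.20, adjusted p = 0.0731). Setting the arrays to one median would raise differences from control by 0.103 with LY2784544 and 0.175 with the combination. On that scale CD79A was at -1.28 and -1.67 and CD79B at -0.92 and -1.15, each still called.

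**Figure D2:**
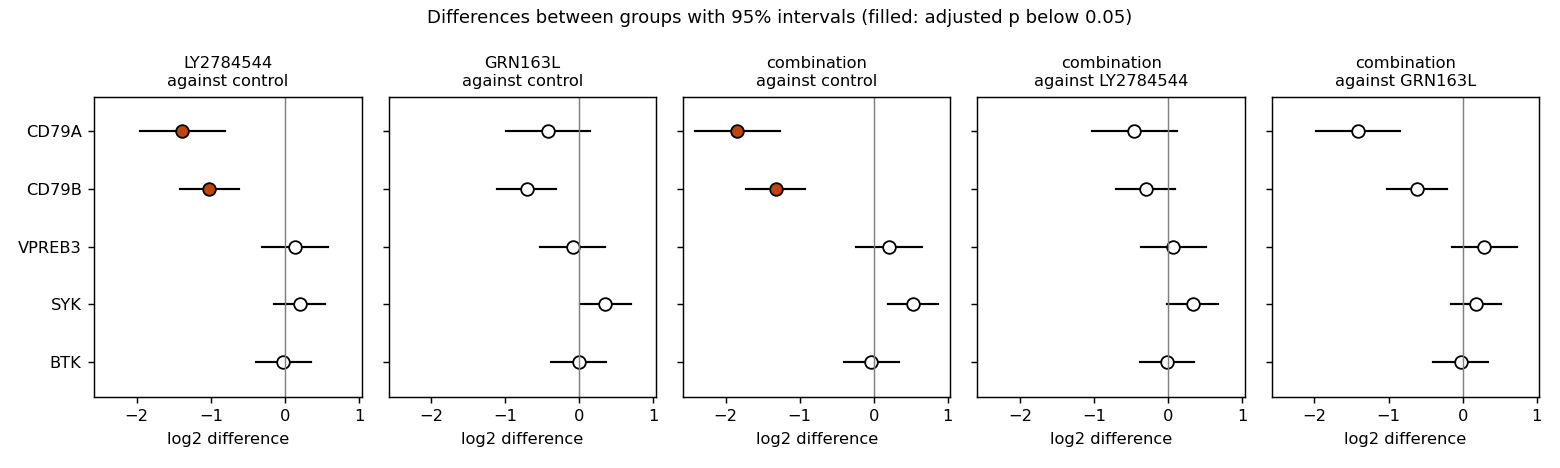
Log2 difference (horizontal axis) of the 5 members kept by the filter in 5 comparisons, with lines for 95% intervals and filled points for adjusted p below 0.05. CD79A and CD79B are filled on the negative side with LY2784544 (-1.39 and -1.02) and with the combination (-1.84 and -1.33), and no other point is filled.

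Adding one agent to the other gave no call for a member. Against LY2784544 alone, the combination left CD79A at -0.46 (interval -1.03 to 0.12, limma adjusted p = 0.475) and CD79B at -0.31 (interval -0.71 to 0.10, adjusted p = 0.498), and both were lower in each experiment. By limma 0 of 5 members were called there, beside 0.31% of all genes. No member had an unadjusted p below 0.05, beside 1696 of 12570 genes that did. Against GRN163L alone, CD79A was at -1.42 (interval -1.99 to -0.85, adjusted p = 0.0569) and CD79B at -0.62 (interval -1.02 to -0.22, adjusted p = 0.179). The 0 of 5 members called stand beside 0.541% of all genes. CD79A and CD79B had unadjusted limma p-values of 3.62e-04 and 0.00715, among 1816 of 12570 genes with an unadjusted p below 0.05.

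Blocked by experiment, CD79A fell in the combination against GRN163L (limma adjusted p = 0.00916), beside 1.44% of all genes that fell in that fit. It also fell there without the LY2784544 array of experiment 1 or 2 (adjusted p = 0.0275 each).

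The interaction measures how far GRN163L moved a gene in the presence of LY2784544 beyond what it did in its absence. It was -0.03 for CD79A (interval -0.84 to 0.78) and 0.41 for CD79B (interval -0.16 to 0.97), intervals too wide to tell additive from modestly non-additive change. By limma 0 of 5 members and 0.0% of all genes were called, with 464 genes but no member at an unadjusted p below 0.05.

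**Figure D3:**
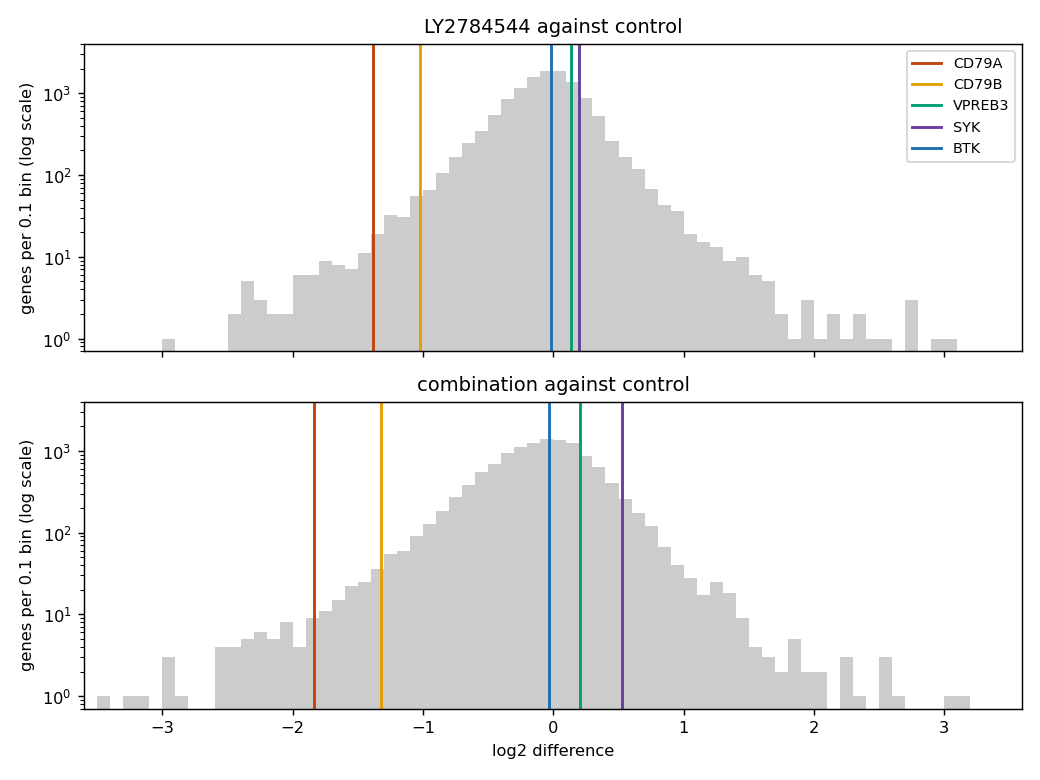
Number of genes (vertical axis, log scale) per 0.1 bin of log2 difference (horizontal axis) among 12570 genes, for LY2784544 against control above and the combination against control below, with a line for each of the 5 members kept. CD79A (-1.39 and -1.84) and CD79B (-1.02 and -1.33) lie in the lower tail, while BTK (-0.02 and -0.04) lies at the centre.

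SYK and BTK, kinases that act downstream of the receptor, were not called in either direction in the fit without a block. SYK, at chr9:90801600-90898549, had signals of 9.26 and 9.15 with LY2784544, 9.31 and 9.40 with GRN163L, 9.52 and 9.55 with the combination, and 8.92 and 9.09 in control. The combination arrays were highest and the control arrays lowest, and no 2 of these groups overlapped. SYK was at 0.53 in the combination against control (SE 0.15, interval 0.19 to 0.87, limma adjusted p = 0.0866, not called), with 0.60 in experiment 1 and 0.46 in experiment 2. It passed when the experiment was blocked (adjusted p = 0.0491, beside 2.84% of all genes that rose in that fit) and in none of the other 14 alternatives (adjusted p up to 0.29). Its difference from control was 0.20 with LY2784544 (interval -0.14 to 0.54) and 0.35 with GRN163L (interval 0.01 to 0.69), neither of them called.

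BTK, at chrX:101349450-101390796, had signals of 10.34 and 10.23 with LY2784544, 10.33 and 10.26 with GRN163L, 10.30 and 10.24 with the combination, and 10.46 and 10.15 in control. The 2 control arrays enclosed all the others. Its difference from control was -0.02 with LY2784544 (interval -0.39 to 0.35), -0.01 with GRN163L (interval -0.38 to 0.36) and -0.04 with the combination (interval -0.40 to 0.33), and the sign of each turned under quantile normalization. Only 7.2% of all genes had a smaller SD over the arrays. Falls of the size seen for CD79A and CD79B lie outside these intervals.

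VPREB1 and VPREB3 were near or below the filter level. VPREB1, at chr22:22244786-22245515, encodes the variable-like part of the surrogate light chain and had signals of 3.02 to 3.43, below the filter on every array. VPREB3, at chr22:23752743-23754425, encodes a related protein found with nascent receptor chains. It had signals of 4.64 and 4.54 with LY2784544, 4.44 and 4.29 with GRN163L, 4.51 and 4.81 with the combination, and 4.24 and 4.67 in control. The groups overlapped the controls throughout, and no comparison called it, with a difference of 0.21 in the combination against control (interval -0.24 to 0.65, limma adjusted p = 0.557). VPREB3 was the member just inside the filter (mean 4.52) and PAX5 the one just outside it (mean 4.12).

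BLNK, at chr10:96189171-96271569, the adaptor between SYK and BTK, had signals of 3.33 to 3.84 and was below the filter on every array. PAX5, at chr9:36833269-37034268, had signals of 4.43 and 4.14 with LY2784544, 4.44 and 3.73 with GRN163L, 4.36 and 4.12 with the combination, and 3.83 and 3.88 in control. The LY2784544 and combination arrays were above both controls, the GRN163L arrays on either side of them. Its difference from control was 0.43 with LY2784544 and 0.39 with the combination in a limma fit on all 17958 genes (adjusted p = 0.534 and 0.394, not called). Other dim genes moved the same way. The median of 356 olfactory receptor genes, a group used mainly in nasal tissue, was 3.5 and 3.41 with LY2784544, 3.32 and 3.30 with GRN163L, 3.53 and 3.37 with the combination, and 3.25 and 3.28 in control, and its part in the PAX5 and BLNK values was not tested. In that fit none of the 3 genes left out by the filter was called in any of the 6 contrasts.

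Other genes of the pathway were taken as 4 lists. Named by rule are the members called against control and, where none was, up to 3 with the highest means. Of 6 immunoglobulin and surrogate light chain genes 3 were kept, and none was called. Beside that, 0.883% of all genes fell and 0.39% rose with LY2784544, and 2.71% fell and 0.756% rose with the combination. With 3 genes, no call is what such shares would give. IGLL1, the constant-like part of the surrogate light chain, was at 5.16 ± 0.04 with LY2784544, 5.23 ± 0.23 with the combination and 5.12 ± 0.16 in control. IGHM, the mu heavy chain, was at 5.20 ± 0.54 with the combination and 4.67 ± 0.17 in control. IGKC, the kappa constant region, was at 6.77 ± 0.42 with LY2784544, 6.75 ± 0.30 with the combination and 6.02 ± 0.16 in control, not called (limma adjusted p = 0.238 and 0.133) unless the experiment was a block (0.0382 and 0.0233). These IGKC differences had the opposite sign to those of CD79A. In the blocked fits 345 of 12570 genes were called with LY2784544, in either direction, and 2.84% of all genes rose with the combination.

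Of 13 B cell surface and coreceptor genes 7 were kept, and 0 were called with either LY2784544 or the combination. Among all genes 0.883% fell and 0.39% rose with LY2784544, and 2.71% fell and 0.756% rose with the combination. Their median difference was -0.40 with LY2784544, against -0.04 over all genes, and -0.54 with the combination, against -0.07 over all genes, with 6 of 7 lower each time. CD37, a tetraspanin of leukocytes, was at 10.43 ± 0.19 with the combination and 11.17 ± 0.21 in control (adjusted p = 0.0804, and 0.0162 with the block). CD81, another tetraspanin, was at 9.43 ± 0.47 with the combination and 10.27 ± 0.41 in control (adjusted p = 0.103). CD40, a costimulatory receptor, was at 5.56 ± 0.13 with LY2784544, 6.05 ± 0.47 with the combination and 6.28 ± 0.15 in control. With the block 2 of these 7 genes, CD37 and CD72, fell in the combination against control, beside 8.15% of all genes that fell in that fit.

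All 25 measured kinases, adaptors and effectors of the receptor, of 27 listed, were kept. None was called with LY2784544, where 0.883% of all genes fell and 0.39% rose. With the combination 1 rose and 1 fell, beside 0.756% of all genes that rose and 2.71% that fell, and the median difference was 0.04, against -0.07 over all genes. DAPP1, also called BAM32, an adaptor that binds phosphoinositides after receptor engagement, had signals of 7.40 and 7.77 with LY2784544, 6.67 and 6.78 with GRN163L, 8.15 and 8.64 with the combination, and 6.66 and 5.53 in control. It rose by 2.30 with the combination (SE 0.34, limma adjusted p = 0.0134), although its control arrays lay far apart, and it was not called without the control array of experiment 2 (1.74, adjusted p = 0.0554). PIK3CD, the leukocyte PI3-kinase catalytic subunit p110-delta, had signals of 4.88 and 5.01 with the combination and 6.03 and 5.61 in control (-0.88, SE 0.18, adjusted p = 0.0397). The PIK3CD call was lost when either control, combination or GRN163L array was left out (-0.67 to -1.09), with median normalization (-0.70) and with the compared groups only. PLCG2, LYN and INPP5D, the 3 with the highest means, were at 0.16, -0.32 and -0.08 in the same comparison, none called.

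Of 20 B lineage transcription and recombination genes 12 were kept, 0 were called with LY2784544 and 2 fell with the combination, beside 2.71% of all genes that fell. The median difference with the combination was -0.04, against -0.07 over all genes. With the block 3 fell, LEF1, BCL11A and IKZF3, beside 8.15% of all genes. LEF1, a transcription factor of early lymphocytes, had signals of 8.89 and 8.81 with LY2784544, 8.93 and 8.98 with GRN163L, 7.66 and 7.67 with the combination, and 9.21 and 8.92 in control. With both agents it fell against each other group, at -1.40 against control (SE 0.16, limma adjusted p = 0.00553), -1.19 against LY2784544 (adjusted p = 0.0283) and -1.29 against GRN163L (adjusted p = 0.0175). The LEF1 call against control held in all 15 alternatives. That against LY2784544 held in 8 of 15, being lost when either LY2784544, GRN163L or combination array was left out (-1.15 to -1.23) and with the compared groups only. That against GRN163L held in 12 of 15, being lost without either GRN163L array (-1.32 and -1.27) and without the combination array of experiment 1 (-1.29).

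BCL11A, a zinc finger factor of B cell progenitors that also silences fetal globin, had signals of 4.31 and 5.06 with LY2784544, 6.61 and 5.93 with GRN163L, 4.55 and 4.53 with the combination, and 6.29 and 5.74 in control. The LY2784544 and combination arrays lay below the GRN163L and control arrays. It fell with the combination (-1.48, SE 0.31, limma adjusted p = 0.0423), was at -1.33 with LY2784544 (adjusted p = 0.0927, not called) and at 0.26 with GRN163L. The call with the combination was lost without a filter, with median normalization, and without either control, GRN163L or combination array (-1.20 to -1.75). IKZF3, a zinc finger factor of lymphocytes, was at 7.60 ± 0.08 with the combination and 8.34 ± 0.06 in control (-0.75, limma adjusted p = 0.0524, and 0.0234 with the block). TCF3, IKZF1 and SPI1, further regulators of early B cells, were at -0.08, -0.63 and 0.02 in the same comparison, none called, and EBF1, IRF4 and IRF8 were below the filter.

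**Figure D4:**
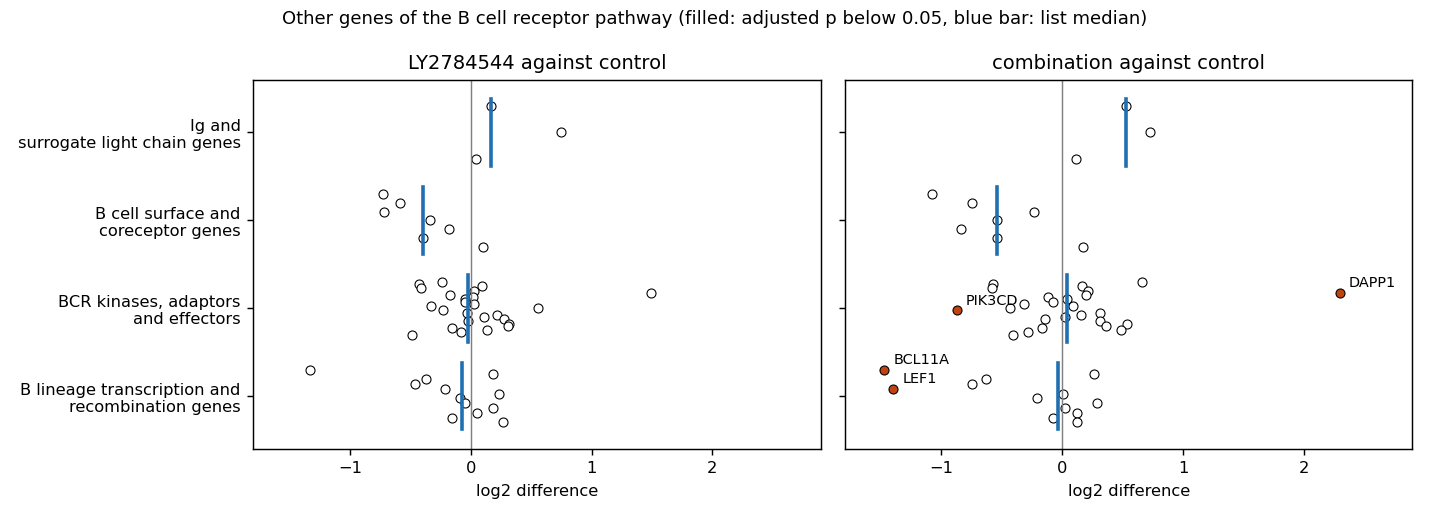
Log2 difference (horizontal axis) of the other measured pathway genes by list, for LY2784544 against control (left) and the combination against control (right), with filled points for adjusted p below 0.05 and blue bars for list medians. With the combination DAPP1 (2.30) stands on the right and PIK3CD (-0.88), BCL11A (-1.48) and LEF1 (-1.40) on the left, and with LY2784544 no point is filled.

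The genes whose pattern was most like that of CD79A over the 8 arrays, by Pearson correlation among 12570 genes, were ITGAL (0.99), PIGU (0.989), MX2 (0.987), NARF (0.984) and AK4 (0.98). CD79B was 170th in that order. These 5 genes were picked for likeness to a gene already known to be lower, on these same arrays. The direction of their differences was thus largely set by that choice, and their falls are no separate evidence. ITGAL, the leukocyte integrin alpha-L chain, averaged 5.06 with LY2784544, 6.27 with GRN163L, 4.65 with the combination and 6.98 in control. It fell with LY2784544 (-1.92, limma adjusted p = 0.0112) and with the combination (-2.33, adjusted p = 0.00465). Without the control array of experiment 1 or 2, or the LY2784544 array of experiment 1, the LY2784544 call was lost (-2.0, -1.83 and -1.72). AK4 also fell with LY2784544 (-1.37) and with the combination (-1.485). MX2 (-0.84) and NARF (-0.61) were not called with LY2784544 and fell with the combination (-0.99 and -0.895). PIGU was called with neither (-0.31 and -0.415), so a high correlation also went with small changes.

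The genes most like CD79B were TNFRSF9 (0.978), SLC17A9 (0.976), ELOF1 (0.976), CMTM7 (0.975) and TSACC (0.971), with CD79A 68th. SLC17A9 (-0.85) and CMTM7 (-0.66) were not called with LY2784544 and fell with the combination (-1.33 and -0.955). ELOF1 (-0.44 and -0.67) and TSACC (-0.26 and -0.345) were called with neither. TNFRSF9, a costimulatory receptor also called 4-1BB, averaged 4.65 with LY2784544, 5.08 with GRN163L, 4.36 with the combination and 6.37 in control. It fell with LY2784544 (-1.73, limma adjusted p = 0.00371) and with the combination (-2.02, adjusted p = 0.00119), and the LY2784544 call was lost without the control array of experiment 2 (-1.62, adjusted p = 0.0529). The genes like CD79B were picked in the same way, so their falls are no separate evidence either. The correlations describe 8 arrays that share treatments, experiments and normalization. SYK had a negative correlation with both genes, at -0.674 with CD79A (11305th in that order) and -0.786 with CD79B (12141st), with further genes beyond it each time.

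Marker levels of other blood cells are given beside these results as values only, with no test. The mean of 6 mast cell and basophil genes was 9.84 to 10.25 with LY2784544, 9.60 to 10.03 with GRN163L, 8.04 to 8.60 with the combination and 10.00 to 10.08 in control, and that of 6 megakaryocyte genes was 8.96 to 9.03 with LY2784544, 8.55 to 8.79 with GRN163L, 9.16 to 9.25 with the combination and 8.60 to 8.76 in control. The 10 T cell genes averaged 4.33 to 4.41 with LY2784544, 4.30 to 4.37 with GRN163L, 4.50 to 4.53 with the combination and 4.35 to 4.44 in control. The 8 erythroid genes averaged 7.83 to 8.38 with LY2784544, 7.92 to 8.35 with GRN163L, 7.70 to 8.01 with the combination and 8.25 to 8.41 in control. The 8 monocyte genes averaged 5.78 to 5.88 with LY2784544, 5.62 to 5.77 with GRN163L, 5.61 to 5.66 with the combination and 5.759 to 5.804 in control. With the combination the mast cell, erythroid and monocyte ranges lay below those of control and the megakaryocyte and T cell ranges above them. Single genes weigh heavily in these means, and the genes of a list did not all move together. HBZ was at 5.20 and 6.25 with the combination and 8.42 and 9.54 in control, but EPOR at 8.71 and 8.69 against 8.89 and 7.99. VCAN was at 4.38 and 5.02 against 6.38 and 6.26, but S100A9 at 5.41 and 4.93 against 4.71 and 4.82. PF4 was at 7.69 and 8.52 against 6.11 and 6.27, but ITGA2B at 11.38 and 11.13 against 11.16 and 11.26. The part of these levels in the falls of CD79A and CD79B was not tested.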

How the data were processed

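For every array the authors deposited log2 signals by probe set, made with RMA in Affymetrix Expression Console, per the submitters' processing notes. The program's version, the genome build of the probe sets and whether the 8 arrays were normalized together were not given in the sources used here, and background correction could not be varied. RMA compresses differences between dim probe sets. The log base was taken from the range of the values.

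Of 33297 probe sets, 19181 named 1 gene, 2055 several and 12061 none in GEO's platform annotation. The 1-gene probe set with the highest mean stood for its gene, and genes with a mean under the 30th percentile were left out. The remaining 12570 genes were fitted with limma (version 3.58.1, R 4.3.3) over 4 group means, tested by empirical Bayes moderation and called where the p-value, adjusted by Benjamini and Hochberg over all genes of a contrast, was below 0.05. In simulated arrays of LY2784544 against control with 12570 genes, 57% of genes changed by 1 log2 unit and 94% of those changed by 2 were recovered, and 7 unchanged genes were called. There, 100 genes were changed by each size, and noise was independent between arrays, with no effect of the experiment. These rates therefore need not hold for the real arrays. With 2 arrays per group their number limits the precision.

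The labels name the first and second experiment, so the replicate number pairs the arrays, and deviations from group means correlated within an experiment with r = 0.103 to 0.674. Identical rounded values on 2 arrays made up at most 1.9%, so no array was a copy. Alternatives were the experiment as a block, other filters, median and quantile normalization, averaged probe sets for each gene, a fit on the compared groups and leaving out each array. The members and lists were chosen with earlier results of these data known. Named from the lists were the genes called against control and, where none was, up to 3 with the highest means, and those most like CD79A and CD79B were the 5 with the highest correlation. CD72, IKZF3, PLCG2, LYN, INPP5D, TCF3, IKZF1, SPI1, EBF1, IRF4 and IRF8 were named outside that rule.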

Additional observations from a re-analysis of the deposited data

How the results depend on the processing

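Of the members called with LY2784544 against control (2), 1 was called without a filter and 0 with the filter at the 50th percentile (which drops CD79B and VPREB3), quantile normalization or the compared groups only, and 0 to 2 when an array was left out. With the combination against control (2), the block gave 3, the 50th percentile filter 1 and leaving out an array 0 to 2. For the combination against GRN163L (0) the replicate block gave 1 and leaving out an array 0 to 1.

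The count of all genes called with LY2784544 (160) was 345 with the replicate block, 70 with the 50th percentile filter, 79 with the compared groups only and 0 to 212 when an array was left out. With the combination (436) it was 1382 with the block, 153 with the compared groups only and 57 to 538 when an array was left out. For GRN163L (0) the compared groups gave 6. For the combination against LY2784544 (39) the block gave 201, the compared groups 0 and leaving out an array 16 to 45. Against GRN163L (68) the block gave 212, median normalization 36, quantile normalization 39 and leaving out an array 0 to 88. For the interaction (0) leaving out an array gave 0 to 8.

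Differences near 0 changed sign without being called. With median normalization the interaction was 0.058 for CD79A, 0.068 for SYK and 0.083 for BTK, and BTK was at 0.083 with LY2784544 and 0.14 with the combination against control, 0.058 against LY2784544 and 0.165 against GRN163L. With quantile normalization SYK's interaction was 0.0056, and BTK was at 0.0291, 0.0047 and 0.0522 with LY2784544, GRN163L and the combination against control, 0.0231 and 0.0475 with the combination against each agent, and 0.0184 in the interaction.

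When an array was left out, BTK ranged over -0.175 to 0.135 with LY2784544, -0.165 to 0.145 with GRN163L and -0.19 to 0.12 with the combination against control, -0.07 to 0.04 and -0.06 to 0.01 with the combination against LY2784544 and GRN163L, and -0.16 to 0.15 in the interaction. VPREB3 ranged over -0.08 to 0.35, -0.305 to 0.125 and -0.01 to 0.42 against control, -0.08 to 0.22 with the combination against LY2784544 and -0.055 to 0.375 in the interaction. The interaction ranged over -0.35 to 0.29 for CD79A and -0.105 to 0.065 for SYK. The cause of these changes was not tested. The replicate block changed no other call of a member than those of CD79A in the combination against GRN163L and SYK in the combination against control. VPREB1, BLNK and PAX5 have values only without the filter.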
